A study of Mus musculus with 2 samples.

Results

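The genes described here encode 9 surface antigens by which cells of the B lineage are recognised and sorted, namely *Cd22*, *Cd24a*, *Cd72*, *Cd37*, *Cd38*, *Cd93*, *Ms4a1*, *Cd2* and *Spn*. They were taken by name from the 20657 protein-coding genes in the deposited expression table, and their 14 protein-coding RefSeq transcripts were kept of 26968 in all. RNA was measured by strand-specific sequencing after removal of ribosomal RNA in 1 library from *Ebf1 -/-* pre-pro-B cells and 1 library from *Rag2 -/-* pro-B cells, both on a C57BL/6 background. Pre-pro-B cells came from female fetal liver and were grown with Il-7 at 5 ng/mL, Scf at 10 ng/mL and Flt3l at 10 ng/mL. Pro-B cells came from adult male bone marrow and were grown with Il-7 at 5 ng/mL, without Scf or Flt3l listed. Both cultures were kept on OP-9 stromal cells, from which the suspended cells were washed off before RNA was taken. Cell type therefore cannot be told apart from genotype, sex, age, tissue and cytokines, and with 1 library per cell type no difference has a replicate check, and none was tested here.

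A B cell displays receptors, adhesion molecules and enzymes on its surface, and the set that it displays changes as a progenitor commits to the lineage. Antibodies to these molecules are the usual means of telling the early stages apart: CD43 (encoded by *Spn*) and CD93 mark early precursors, heat-stable antigen (encoded by *Cd24a*) increases as precursors commit, and CD20 (encoded by *Ms4a1*), CD22, CD37 and CD72 are best known from later B cells. Several of the molecules tune signals from the B cell receptor. CD22 and CD72 carry inhibitory tyrosine motifs in their cytoplasmic tails that recruit the phosphatase SHP-1. Ebf1, the factor that the pre-pro-B cells lack, is a transcription factor needed for commitment to the B lineage, and Rag2 is part of the recombinase that assembles antigen receptor genes.

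Expression was read as FPKM, the fragments counted for each kilobase of a transcript and scaled by the size of the library, summed over the transcripts of a gene. A gene was called higher or lower where log2(FPKM + 1) differed by at least 2-fold between the libraries. The added 1 understates the change of genes with low FPKM. Both libraries were sequenced to a nominal depth of about 90 M reads. *Ebf1* was at 64.0 FPKM in the *Ebf1 -/-* library and 273 in the other, and *Rag2* at 22.9 in the *Rag2 -/-* library and 34.5 in the other. By this rule *Ebf1* was lower in its own null cells and *Rag2* lay within 2-fold. Intervals of both genes overlapped between the libraries, and neither gene was at 0. An FPKM covers the whole transcript and does not show whether the deleted part was read. All 5 markers of B lineage commitment examined were higher in pro-B cells, their FPKM summing to 3.17 and 1719. Here and below the pre-pro-B library comes before the pro-B library. The 6 genes listed as progenitor markers summed to 1666 and 429. Of these 6, 5 were lower, and the exception, *Il7r* (349 and 424), made up most of the second sum. The 5 include *Ptprc* (269 and 0.917), which is not particular to progenitors, as it is also counted below among the surface antigens of B cells. Limits of its low estimate in pro-B cells are given below. Among markers of other cells, the 9 myeloid genes summed to 929 FPKM in the pre-pro-B library and 16.0 in the pro-B library, 5 of them lower, with *Tyrobp* at 463 and 1.28 and *Fcer1g* at 395 and 1.46, whereas *Elane* was listed at 0 in both and *Csf1r* was at 0.170 and 0. The 7 markers of T and NK cells summed to 59.3 and 3.51, the 12 stromal markers, 3 of them higher and 1 lower, to 20.6 and 18.7 with *Postn* at 0 in both, and the 3 erythroid markers measured to 0.449 and 0.196. The stromal sums rest on *Pdgfrb* (15.9 and 0.377): without it they were 4.65 and 18.3, and each of the 10 other stromal markers above 0 had its larger value in the pro-B library. The part of these cells in the levels of the antigens was not tested.

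Of the 9 antigens, 3 were higher in the pro-B library (*Cd24a*, *Cd22* and *Cd72*), 1 was lower (*Cd2*), 4 lay within 2-fold (*Cd37*, *Cd38*, *Cd93* and *Spn*), and *Ms4a1* was listed at 0 in both libraries. Among all 14640 genes with an FPKM above 0 in a library, 8.97% were higher by the same rule and 14.0% were lower. Genes below 1 FPKM in both libraries cannot reach 2-fold by this rule, and they lower these shares. All 8 antigens above 0 reached 1 FPKM in the pro-B library. The median log2 change of the 8 antigens above 0 was 0.77, beside -0.05 for all genes. With 0.1 added in place of 1 these medians were 1.44 and -0.14, with nothing added 1.64 and -0.12, and over the 6 antigens with an FPKM of at least 1 in both libraries 0.48 and -0.08. Their summed FPKM was 515 in the pre-pro-B library and 4186 in the pro-B library, but *Cd24a* alone made up 4.62% of the first sum and 80.8% of the second. Without *Cd24a* the sums were 492 and 805. In each library 6 of the 9 reached an FPKM of 10, against a median of 6.58 over the 14640 genes in the pre-pro-B library and 5.19 in the pro-B library. In bulk RNA a smaller number of cells with a transcript and less of the transcript per cell cannot be told apart.

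**Figure D1:**
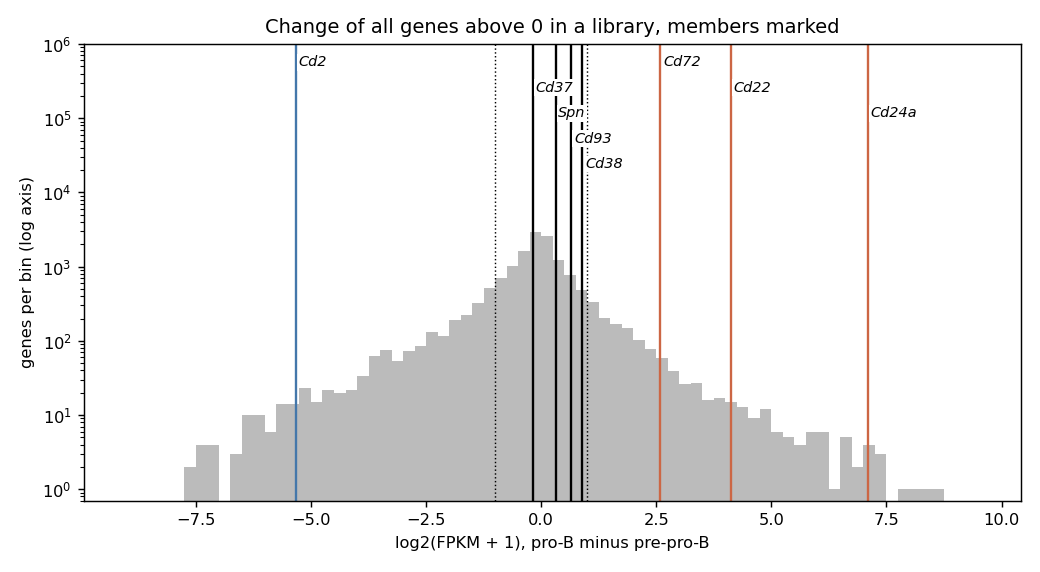
Histogram of the change of 14640 genes between the libraries as log2(FPKM + 1) in pro-B minus pre-pro-B cells, with genes per bin on a log axis, 2-fold marked by dotted lines and the antigens by coloured lines (red, higher; blue, lower) or black lines (within 2-fold). *Cd24a* at 7.09 and *Cd2* at -5.33 lie in the outer tails, and *Cd37*, *Spn*, *Cd93* and *Cd38* lie between -0.18 and 0.89.

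In order of level in pre-pro-B cells the antigens ran *Cd93*, *Cd2*, *Cd37*, *Cd72*, *Spn*, *Cd24a*, *Cd22* and *Cd38*, and in pro-B cells *Cd24a*, *Cd93*, *Cd72*, *Cd37*, *Spn*, *Cd22*, *Cd2* and *Cd38*. FPKM are per length, which allows levels to be set beside each other, but the confidence intervals that Cuffdiff, the program that estimated the FPKM, gave were wide. Of the 13 antigen transcripts above 0, 1 had 95% intervals that were separate between the libraries and higher in pro-B cells (NM_001043317 of *Cd22*), and 0 had separate intervals that were lower. Over all 18877 coding transcripts above 0, these shares were 0.959% and 2.06%. The intervals come from a model of single libraries and do not contain variation between cultures.

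**Figure D2:**
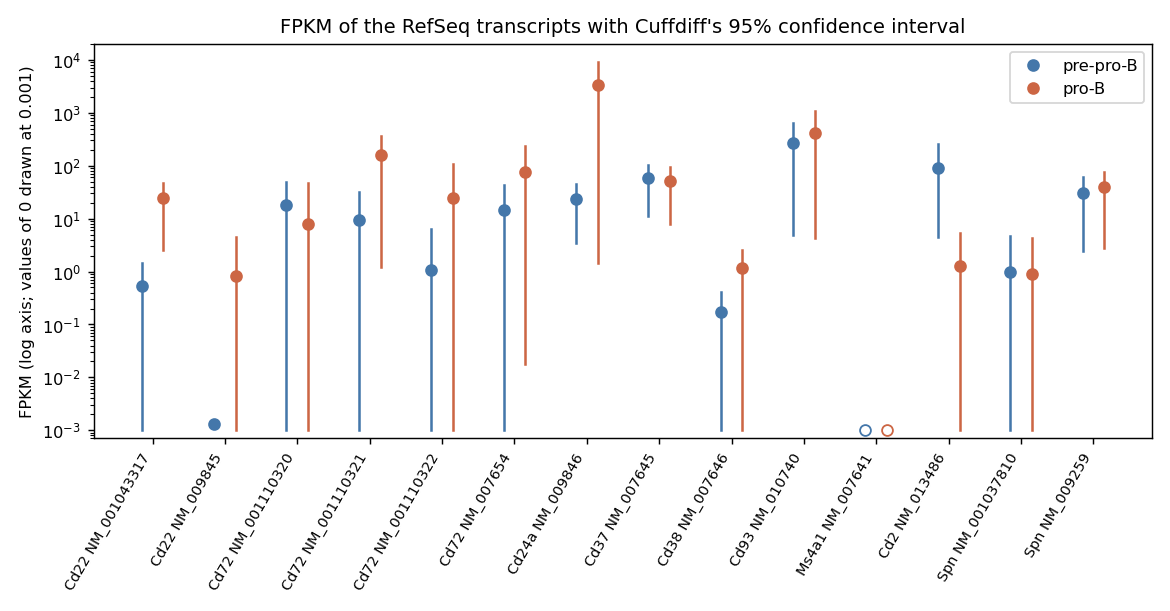
FPKM of the 14 transcripts in pre-pro-B (blue) and pro-B cells (red) on a log axis, with vertical lines for Cuffdiff's 95% interval and open symbols for values of 0 drawn at the bottom. The lines of NM_001043317 of *Cd22* do not overlap, and *Ms4a1* has only the open symbols.

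Promoter sequences from RefSeq (build GRCm38.p6, a later build than the mm9 of the expression files), 250 bases before to 50 bases after the start, were held for 5 of the 9 genes: *Cd22*, *Cd72*, *Cd37*, *Cd38* and *Spn*. Entries for *Cd24a*, *Cd93*, *Ms4a1* and *Cd2* were missing. The promoters of *Cd22* (chr7:30878979-30879278, minus strand) and *Cd72* (chr4:43454577-43454876, minus strand) are shown because both genes were higher in pro-B cells, which have Ebf1, and that of *Spn* (chr7:127137774-127138073, minus strand) because it held the most Ebf1-like matches of the 5 although *Spn* stayed within 2-fold. Each is written 5′ to 3′ on the strand of the gene, with the letters CCCNNGGG (Ebf1-like) and CAGNTG or its reverse complement (E-box, the letters bound by E2A) in capitals.
Cd22: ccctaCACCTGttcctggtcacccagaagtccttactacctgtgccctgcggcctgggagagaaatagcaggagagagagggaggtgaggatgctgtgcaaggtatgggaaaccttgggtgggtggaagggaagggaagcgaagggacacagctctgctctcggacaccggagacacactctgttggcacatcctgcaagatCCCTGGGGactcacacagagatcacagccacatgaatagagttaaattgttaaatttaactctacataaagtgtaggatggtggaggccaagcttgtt
Cd72: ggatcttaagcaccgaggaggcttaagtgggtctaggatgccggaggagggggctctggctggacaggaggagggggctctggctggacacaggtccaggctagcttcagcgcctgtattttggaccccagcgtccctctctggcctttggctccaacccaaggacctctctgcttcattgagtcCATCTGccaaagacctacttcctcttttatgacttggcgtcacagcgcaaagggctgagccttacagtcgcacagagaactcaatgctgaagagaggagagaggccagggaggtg
Spn: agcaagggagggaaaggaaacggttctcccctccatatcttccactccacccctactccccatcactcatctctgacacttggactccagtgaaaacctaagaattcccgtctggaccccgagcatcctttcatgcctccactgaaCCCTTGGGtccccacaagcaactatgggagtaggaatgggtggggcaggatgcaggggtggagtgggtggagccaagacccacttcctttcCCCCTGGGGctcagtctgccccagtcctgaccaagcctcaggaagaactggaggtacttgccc

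CCCNNGGG reads the same on both strands. It occurred 1 time in the *Cd22* promoter, from base -48 relative to the start, and 3 times in the *Spn* promoter, from bases -104, -13 and -12, the last 2 overlapping each other by all but their end letters. It was in 13.7% of all 32851 promoters of this length, and *Cd72*, *Cd37* and *Cd38* held none. The E-box was in 51.4% of all promoters and in 4 of the 5 here, at base -245 in *Cd22*, -65 in *Cd72*, -175 in *Cd37* and -123 in *Cd38*. GAGGAA, an Ets-like sequence, was found on either strand in *Cd72* and *Cd37* and in 28.3% of all promoters, and GGGAA, an Ikaros-like sequence, in *Cd22*, *Cd37*, *Cd38* and *Spn* and in 62.7% of all. These are matches of letters and not sites of binding, they cover 5 of the 9 genes, and nothing is drawn from them about Ebf1.

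The genes of the inhibitory receptors CD22 and CD72 were both higher in pro-B cells by their summed FPKM, and levels of protein were not examined here. *Cd22* encodes a sialic acid-binding lectin of the Siglec family that dampens signals of the B cell receptor (chromosome 7 of mm9, 31650421 to 31665361, minus strand). Its summed FPKM was 0.545 in the pre-pro-B library and 25.8 in the pro-B library, a log2 change of 4.11 and a ratio of 47.3. Its main transcript NM_001043317 was at 0.544 FPKM (interval 0 to 1.48) in pre-pro-B cells, or about 200 reads at the nominal depth, and at 24.9 (interval 2.56 to 47.8) in pro-B cells. The intervals did not overlap. The second transcript, NM_009845, was at 0.00129 in pre-pro-B cells, which is less than the 0.00839 FPKM that 3 reads would give, and at 0.816 (interval 0 to 4.53) in pro-B cells. NM_001043317 thus carried 99.8% of the FPKM of the gene in the pre-pro-B library and 96.8% in the pro-B library. The genes nearest to *Cd22* in level in both libraries were *Otub2* (0.740 and 26.2 FPKM, at a distance of 0.17 in the plane of both log2 levels) and *Pcdhb16* (0.698 and 23.0, at 0.21).

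*Cd72* (chromosome 4, 43459334 to 43467500, minus strand) encodes a C-type lectin-like receptor that binds the semaphorin Sema4d. It was expressed in both libraries, with 43.2 FPKM in the pre-pro-B library and 265 in the pro-B library, a log2 change of 2.59 and a ratio of 6.14. Its 4 transcripts did not change together. NM_001110321 was at 9.61 FPKM (interval 0 to 32.3) and 158 (interval 1.22 to 371), NM_007654 at 14.6 (interval 0 to 42.7) and 75.0 (interval 0.0178 to 233), and NM_001110322 at 1.05 (interval 0 to 6.30) and 24.3 (interval 0 to 107). These 3 estimates were higher in pro-B cells. NM_001110320 was at 17.9 (interval 0 to 49.4) and 7.93 (interval 0 to 46.3), so its estimate was lower there. The leading transcript was therefore NM_001110320 in pre-pro-B cells, with 41.5% of the gene's FPKM against 2.99% in pro-B cells, and NM_001110321 in pro-B cells, with 59.6% against 22.2%. The transcripts are close in length (1503, 1431, 1320 and 1482 bases for NM_001110320, NM_001110321, NM_001110322 and NM_007654), and all 4 pairs of intervals overlapped, so the order of the transcripts was not separated at this precision. *Tesk1*, a kinase gene on the other strand that shares the locus, was at 6.59 and 9.40 FPKM, and the library preparation kept strand. Of the 3 antigen genes with several transcripts, *Cd72* was the one whose leading transcript differed between the libraries.

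**Figure D3:**
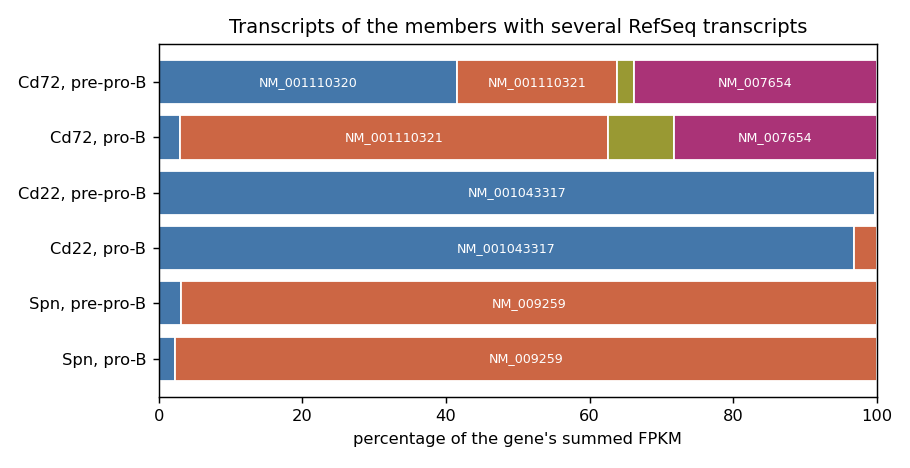
Share of each transcript in the summed FPKM of *Cd72*, *Cd22* and *Spn* in each library, in percent, with transcripts of small share left without a name. *Cd22* and *Spn* rest on 1 main transcript in both libraries, whereas the leading transcript of *Cd72* is NM_001110320 in pre-pro-B cells (41.5%) and NM_001110321 in pro-B cells (59.6%).

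Partners of these receptors took both directions. *Ptprc*, which encodes the CD45 phosphatase, a ligand of CD22, was at 269 FPKM in the pre-pro-B library and 0.917 in the pro-B library. Of its 3 transcripts, NM_001111316 was at 105 FPKM (interval 0.0242 to 306) in the pre-pro-B library and 0.141 (interval 0 to 0.742) in the pro-B library. NM_011210 was at 164 (interval 0.647 to 422) and 7.45e-05 (interval 0 to 0), and NM_001268286 at 0 (interval 0 to 0) and 0.776 (interval 0 to 2.08). Values at or near 0 can be failed estimates, so the low sum in pro-B cells is not read as absence. *St6gal1*, the sialyltransferase that makes the glycan bound by CD22, was at 39.0 and 59.3. *Sema4d*, the ligand of CD72, was at 36.0 and 8.85 and was lower in pro-B cells. Of the 7 other Siglec genes, 1 was higher, 3 were lower and 3 lay within 2-fold, with a median log2 change of -0.16. *Siglecg*, another inhibitory receptor of B cells, was at 1.37 and 73.4 FPKM, so it was higher in pro-B cells as *Cd22* was. *Siglech*, known from plasmacytoid dendritic cells, was at 54.3 and 0.236, and *Cd33*, known from myeloid cells, at 9.92 and 0.0200. Of the myeloid markers, 5 were lower in pro-B cells too, and their part in these values was not tested. Among the genes of 14 proteins that bind the tails of the antigens or act next to them, 1 was higher and 5 were lower. The other 8 lay within 2-fold (median of the 14, -0.34). The adaptor gene *Blnk* was at 1.83 and 147 FPKM, *Ptpn6*, which encodes SHP-1, at 88.3 and 15.6, and *Pstpip1*, of a CD2-binding adaptor, at 15.8 and 1.70.

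Of the mucin-like antigens, *Cd24a* was higher in pro-B cells and *Spn* lay within 2-fold. *Cd24a* (chromosome 10, 43298975 to 43304068, plus strand) encodes heat-stable antigen, a short glycosylated peptide held in the membrane by a lipid anchor. Its FPKM was 23.8 (interval 3.42 to 44.2) in the pre-pro-B library and 3381 (interval 1.44 to 9036) in the pro-B library, a log2 change of 7.09 and a ratio of 142. It held rank 3346 of 14640 genes in the pre-pro-B library and rank 2 in the pro-B library, and its change was the 9th largest upward. In spite of this size the intervals overlapped, since the interval in pro-B cells spanned from below that of pre-pro-B cells to far above it. Of the 1782 stretches of 32 bases in its transcript, 712 (40.0%) also occurred exactly elsewhere in the genome, 706 of them at 1 place on chromosome 14 of mm9 (120043215 to 120048787), a search made after the values were seen. Reads from such stretches fit both places, and Cuffdiff was run with a correction that weights reads with multiple hits. The place on chromosome 14 lies within the span of *Hs6st3*, a sulfotransferase gene listed at 0 in both libraries, and its part in the FPKM of *Cd24a* was not tested. For *Cd72*, *Cd37* and *Cd2* that share was 0, and for the other antigens it lay between 0.241% and 4.33%. No gene came close to *Cd24a* in both libraries: the nearest, *H2bc13* (48.2 and 1085 FPKM) and *Ucp2* (78.9 and 789), lay at distances of 1.91 and 2.69 in log2 levels. Of the receptors of heat-stable antigen, *Siglecg* is given above, and *Selp*, which encodes P-selectin, was at 0.111 and 1.48 FPKM.

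*Spn* (chromosome 7, 134275746 to 134281337, minus strand) encodes CD43, a long sialomucin that keeps cells apart and marks early B precursors. Its summed FPKM was 32.1 in the pre-pro-B library and 40.2 in the pro-B library, a log2 change of 0.31. The longer transcript NM_009259 was at 31.1 (interval 2.48 to 59.9) and 39.3 (interval 2.76 to 75.9), and the shorter NM_001037810 at 0.975 (interval 0 to 4.80) and 0.905 (interval 0 to 4.37). The intervals of both transcripts thus overlapped between the libraries over most of their range. *Siglec1*, whose product binds CD43, was at 0 and 0.0348. Of 6 other sialomucin and mucin-like genes, 0 were higher, 2 were lower, 3 lay within 2-fold and 1 was listed at 0 in both (median -0.48). *Cd34*, an antigen of hematopoietic progenitors, was at 534 and 1.52 FPKM and *Selplg*, which encodes the ligand of P-selectin, at 71.6 and 34.7, both lower in pro-B cells. *Muc1* was at 0.850 and 0.325.

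Of the antigens that cross the membrane 4 times, *Cd37* was present in both libraries and *Ms4a1* was listed at 0 in both. *Cd37* (chromosome 7, 52489002 to 52494485, minus strand) encodes a tetraspanin that organises other membrane proteins. Its FPKM was 57.6 (interval 11.0 to 104) in the pre-pro-B library and 50.7 (interval 7.96 to 93.5) in the pro-B library, and its log2 change of -0.18 was the smallest in size of the 8. *Tead2*, which lies against it on the other strand, was at 0.159 and 0.132. Among the 22 other tetraspanin genes above 0, 1 was higher, 9 were lower and 12 lay within 2-fold, with a median of -0.50. *Tspan2* was at 102 and 1.18 FPKM, *Cd9* at 40.9 and 0.0487 and *Tspan9* at 6.30 and 0.0929, all lower in pro-B cells.

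*Ms4a1* (chromosome 19, 11324654 to 11340669, minus strand) encodes CD20. Its transcript NM_007641 was at 0 in both libraries with a quantification status of OK, and 3 reads would have given an FPKM of 0.0162 at the nominal depth. Its locus in the table also holds *Ms4a5* and a non-coding RNA, 4930526L06Rik. The 0 was shared with its whole family. All 11 other Ms4a genes of the list were at 0 in both libraries, and so were all 18 genes with an Ms4a symbol, counted after the values were seen. Around *Ms4a1*, 26 consecutive coding transcripts of 20 genes, 15 of them Ms4a genes, were at 0 in both libraries over 696.0 kb (chromosome 19, 11141961 to 11837937), between NM_001177351 at 5.72 and 0.736 FPKM and *Mrpl16*, a mitochondrial ribosomal protein gene, at 26.4 and 38.0. Over all 20657 genes, 6017 were listed at 0 in both. A listed 0 can be a failed estimate and is not read as absence.

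**Figure D4:**
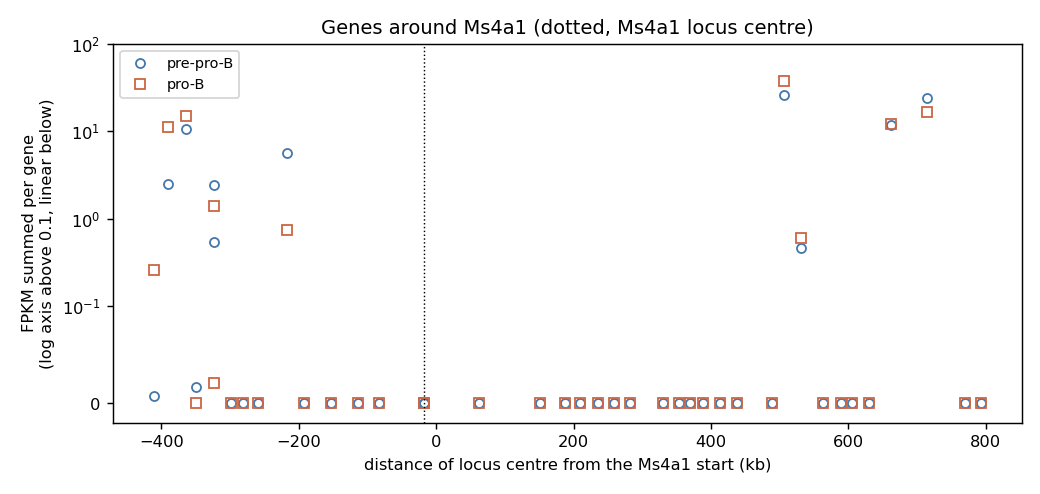
FPKM summed per gene in pre-pro-B (blue circles) and pro-B cells (red squares) against the distance of the locus centre from the start of *Ms4a1* in kb, on an axis that is logarithmic above 0.1 and linear below. The genes around *Ms4a1* lie at 0 in both libraries between NM_001177351 (5.72 and 0.736) on the left and *Mrpl16* (26.4 and 38.0) on the right.

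*Cd38* (chromosome 5, 44260048 to 44303614, plus strand) encodes an enzyme on the cell surface that turns NAD into cyclic ADP-ribose. It was the lowest of the antigens above 0, with an FPKM of 0.172 (interval 0 to 0.409) in the pre-pro-B library, about 46 reads, and 1.18 (interval 0 to 2.55) in the pro-B library, about 317 reads. The log2 change was 0.89, within 2-fold, whereas the ratio of the FPKM themselves was 6.86. Its call therefore depends on the 1 that was added: with 0.1 added the log2 change was 2.23, with nothing added 2.78, and after rescaling to TPM 1.49, all past 2-fold. The intervals overlapped. Of 6 related ectoenzymes, 1 was higher, 1 was lower, 3 lay within 2-fold and 1 was listed at 0 in both (median 0.16). *Bst1*, the other ADP-ribosyl cyclase, was at 1.14 and 152 FPKM, *Nt5e*, which encodes the nucleotidase CD73, at 1.19 and 0, and *Enpp1* at 0.0269 and 0.169. *Pecam1*, the ligand of CD38, was at 80.1 and 45.2.

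*Cd93* (chromosome 2, 148262376 to 148269299, minus strand) encodes a C-type lectin-like receptor known as AA4.1, an antigen of early B precursors that is also found on other progenitors, myeloid cells and endothelium. It was the highest of the antigens in pre-pro-B cells, with an FPKM of 267 (interval 4.80 to 644), and was at 420 (interval 4.23 to 1087) in pro-B cells. These levels held ranks 103 and 68 of 14640. The log2 change of 0.65 lay within 2-fold, and the interval of pre-pro-B cells lay inside that of pro-B cells, which reached further up. The 7 related C-type lectin-like genes took both directions, with 2 higher, 2 lower, 2 within 2-fold and 1 listed at 0 in both (median -0.13). *Thbd*, which encodes thrombomodulin and belongs to the same family as *Cd93*, was at 5.24 and 107 FPKM, *Cd248* at 0.134 and 2.75, and *Cd69*, an early activation antigen of lymphocytes, at 91.7 and 21.0.

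*Cd2* (chromosome 3, 101079822 to 101091862, minus strand) was the antigen that was lower in pro-B cells. It encodes an adhesion molecule of T cells, NK cells and, in the mouse, B cells, which binds CD48. Its FPKM was 90.8 (interval 4.52 to 259) in the pre-pro-B library, about 9347 reads, and 1.29 (interval 0 to 5.25) in the pro-B library, about 132 reads, a log2 change of -5.33 and a ratio of 70.6. The intervals overlapped between 4.52 and 5.25. The change was the 63rd largest downward of 14640. *Cd48*, its ligand, was at 51.1 and 5.91 FPKM and was lower in pro-B cells too. Genes nearest to *Cd2* in level were *Emb* (94.7 and 1.21 FPKM, at a distance of 0.08) and *Tspan2* (at 0.17). Of the 7 T and NK cell markers, 4 were lower in pro-B cells, with *Cd3g* at 36.8 and 0.0351 and *Cd3e* at 0.239 and 0.102 FPKM, and their part in the level of *Cd2* was not tested.

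Among 31 further surface antigens of B cells, 10 were higher in the pro-B library, 8 were lower and 13 lay within 2-fold, with a median of -0.04. *Cd79a*, a signalling chain of the B cell receptor, was at 0.200 and 135 FPKM. *Ptprc* had the largest fall of this list by its summed estimate, with the limits given above. Among the mature B cell markers, *Cr2* was at 0.182 and 15.5 and *Fcer2a* at 0.0314 and 0. Over all 110 related genes, 95 were above 0 in a library, of which 17 were higher, 32 were lower and 46 lay within 2-fold, with a median of -0.27. Their shares of higher and lower genes were both above those of all genes given earlier, and these lists were written with results of the same data known.

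**Figure D5:**
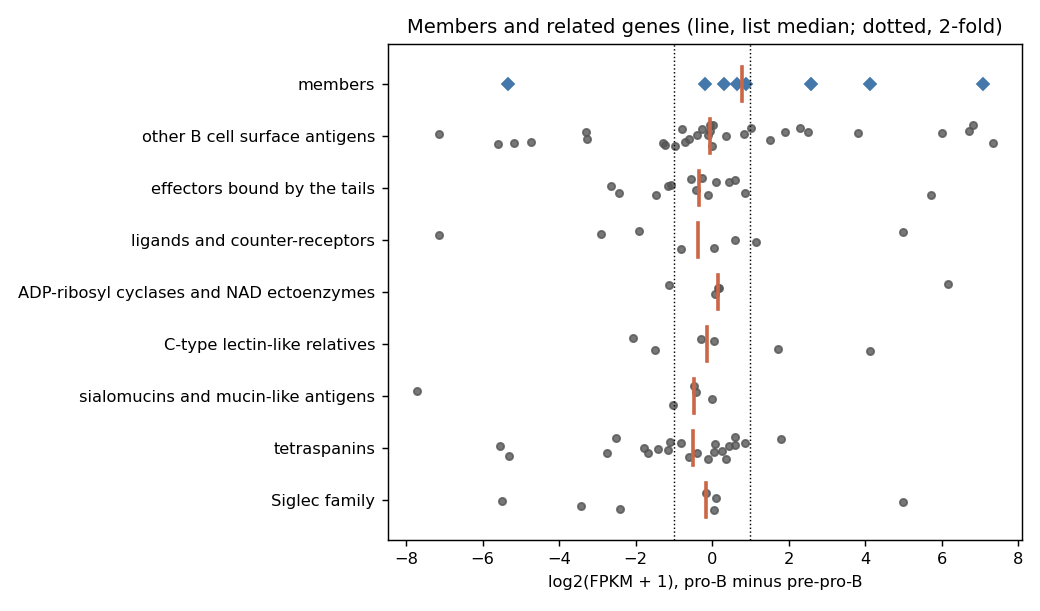
Change in log2(FPKM + 1) from pre-pro-B to pro-B cells of the 8 antigens above 0 (diamonds) and of related genes by list (circles, spread vertically for legibility), with the median of each list as a red line and 2-fold as dotted lines. The median of the antigens is 0.77, and the list medians lie between -0.50 for the tetraspanins and 0.16 for the ectoenzymes.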

How the data were processed

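The authors trimmed 97 bp single-end reads, aligned them to mm9 with TopHat (1.5 in the submitters' processing notes) and estimated the deposited FPKM and their 95% intervals per RefSeq transcript with Cuffdiff 2.1.1, with correction for multiple hits and fragment bias and a blind dispersion. A further deposited table holds the authors' fold changes, p-values and q-values, which were not used.

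Of 30485 transcripts, the coding ones (26580 accessions) were kept. RefSeq gene tables of GRCm38 named 26173, and the rest stayed under their accession. FPKM were summed per gene and compared as log2(FPKM + 1), at 2-fold. Reads behind an FPKM were approximated from its length and 90 M reads, and 3 reads were taken as the limit of a listed 0, for counting error only. Those 90 M are nominal sequenced reads and not the mapped reads of each library, so the read numbers are rough. Coordinates are from GENCODE on mm9. Python 3.11.15, numpy 2.4.6 and pandas 2.3.3 were used. The calling rule was run on simulated data with large planted changes and little noise. That run checks the code and not how reliable the calls are in single libraries. The antigens and the lists were chosen with earlier results of these data known. Genes named were the antigens, the targeted genes, the cell type markers, the 3 genes of each list with the largest change, ligands, and for the 3 antigens with the largest change the 2 genes nearest in level, some of which are not reported here. Alternatives were other pseudocounts, filters, folds, scalings, transcripts and promoter windows.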

Additional observations from a re-analysis of the deposited data

How the results depend on the processing

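No antigen changed direction under any of 10 alternatives, but many of these outcomes were fixed in advance. The FPKM filters leave a gene's value as it is, 0 antigen rows were duplicates, and all 14 had status OK in both libraries. The limit of 4-fold reuses the main values, and another pseudocount cannot reverse a direction. Of 78 log2 changes of antigens recomputed, 75 kept their call and 3 did not, all of *Cd38*, which was higher with a pseudocount of 0.1 (2.23), with none (2.78) and as TPM (1.49). TPM are larger numbers than FPKM, so an added 1 weighs less. A floor of 1 FPKM in both libraries left 2 antigens higher, since *Cd22* was not tested there. TPM shifted every log2 ratio taken without a pseudocount by -0.09 and median-ratio scaling by 0.12. With 1 added, TPM moved *Cd22* from 4.11 to 4.79 and *Cd2* from -5.33 to -5.88.

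For all genes, the 1313 higher and 2045 lower became 2142 and 3181 with a pseudocount of 0.1 and 458 and 797 at 4-fold. Without a pseudocount they were 2116 and 2701, and with at least 1 FPKM in both libraries 935 and 1004, so lower genes hardly outnumbered higher ones there. Of the related genes, 17 higher and 32 lower became 11 and 18 at 4-fold, and 9 were higher with at least 1 FPKM in both. Markers of other cell types counted 3 higher, but 9 with a pseudocount of 0.1 and 7 as TPM. Promoters with an E-box fell from 4 to 1 with 100 bases before the start, and the share of all promoters from 51.4% to 30.8%. These follow from how the alternatives are built (fewer genes, a smaller added number, a higher limit, a shorter window). The planned count of protein features was not run, as no protein table was held. No paired analysis was possible because each cell type has 1 library, and for the same reason no replicate could be left out.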

Other observations

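The genes next to each antigen, 2 on either side, were examined after the values of the antigens were seen. Of 36 such neighbours, 29 were above 0 in a library, 8 were higher in the pro-B library, 3 were lower, and 7 were listed at 0 in both. These are 27.6% and 10.3% of the 29, beside 8.97% and 14.0% of all genes. Next to *Cd38*, which was at 0.172 and 1.18 FPKM in the pre-pro-B and the pro-B library, *Bst1* lay 25.5 kb away at 1.14 and 152, and *Fbxl5*, which encodes a sensor of iron, 47.2 kb away at 36.5 and 274. Near *Cd93*, *Thbd* lay 28.45 kb away at 5.24 and 107 FPKM. *Sit1*, a transmembrane adaptor of lymphocytes, lay 27.45 kb from *Cd72* and was at 0.131 and 76.1. Near *Cd2*, which was lower in pro-B cells, *Igsf3* at 89.2 kb was at 1.23 and 0.105 FPKM and was lower too, while *Ptgfrn* at 166 kb was at 0.878 and 0.0912 and lay within 2-fold. The neighbours of *Spn* all lay within 2-fold, as did *Spn* itself. Beside *Cd24a*, *Qrsl1* was at 3.76 and 10.0 FPKM and *Rtn4ip1* at 3.35 and 14.1, both higher, and *Bend3* was at 2.71 and 2.00. These are values of 1 library per cell type, and distances are between gene spans on mm9.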
